A study of Mus musculus with 15 samples.

Results

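The tubulin genes described here are 10 isotypes, chosen by name and found in the count tables by their Ensembl identifiers. They are the alpha tubulin genes Tuba1a, Tuba1b, Tuba1c and Tuba4a, the beta tubulin genes Tubb2a, Tubb2b, Tubb4b, Tubb5 and Tubb6, and the gamma tubulin gene Tubg1. They are 10 of the 53700 genes counted in each library. The libraries were made from poly(A) RNA of germinal vesicle (GV) oocytes of the mouse, the arrested stage before meiosis resumes, with 15 oocytes pooled in each library. In the Padi6 line, on an FVB/N background, oocytes of 3 heterozygous (Padi6 +/-, here het) and 3 homozygous mutant (Padi6 -/-, here KO) replicates were compared. In the Tle6 line, on a C57BL/6J background, 2 het and 4 KO replicates were compared. The reference group of each line thus carries a mutant allele too, and the 2 lines differ in strain as well as in the gene disrupted. Tle6 het replicates 1 and 2 and KO replicate 4 were each sequenced from technical libraries A and B, which were added up. The sources used here do not give the females behind each replicate, their age or the making of the alleles. The p-values weigh group differences against the spread of these samples, and what variation between females that spread holds is not known.

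Alpha and beta tubulin form the heterodimer that polymerises into microtubules, and each is encoded by several genes, the isotypes, whose products differ mainly in an acidic tail at the end of the protein. Gamma tubulin does not join the microtubule wall but sits in ring complexes from which microtubules are nucleated. In many cells the amount of alpha and beta tubulin mRNA is set by a feedback in which free tubulin leads to decay of the mRNAs while they are translated, through TTC5, a factor that binds the first residues of the new chain. The fully grown oocyte stores mRNA for the meiotic spindle and for the early embryo. PADI6 belongs to the peptidylarginine deiminase family, and TLE6 is part of the subcortical maternal complex. Without either, the oocyte is known to lack its cytoplasmic lattices, fibrous structures that store maternal proteins.

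The first 30 coding bases are shown because in alpha and beta tubulin mRNAs their start encodes the residues read in this feedback, and because they show how alike the members are. Tubg1 stands beside them for comparison, and the sequence of Tubb6 is not shown. The capitals mark the first 12 coding bases. The sequences were read from the GENCODE M21 transcripts (GRCm38), 5′ to 3′, on the coding strand.
Tuba1a: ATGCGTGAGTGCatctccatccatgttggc
Tuba1b: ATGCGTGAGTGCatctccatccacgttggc
Tuba1c: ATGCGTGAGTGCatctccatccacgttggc
Tuba4a: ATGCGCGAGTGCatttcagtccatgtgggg
Tubb2a: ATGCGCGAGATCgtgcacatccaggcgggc
Tubb2b: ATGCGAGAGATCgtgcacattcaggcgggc
Tubb4b: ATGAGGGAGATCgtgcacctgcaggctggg
Tubb5: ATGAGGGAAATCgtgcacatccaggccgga
Tubg1: ATGCCGAGAGAAatcatcaccctacagttg

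The 12 bases of Tuba1a, Tuba1b and Tuba1c were identical and occurred in these 3 of 21511 coding genes (0.0139%). Those of Tubb4b also opened Tubb3, and those of Tuba4a, Tubb2a, Tubb2b, Tubb5 and Tubg1 each occurred in 1 coding gene (0.00465%). Over the whole coding sequence, pairs of the alpha members shown were identical at 84.7 to 98.3% of bases, and pairs of the beta members shown at 82.2 to 96.5%. An alpha and a beta member were identical at 55.9 to 57.7%.

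The last 60 coding bases of 2 alpha and 4 beta members are shown because they encode the tail in which isotypes differ. The capitals mark the stop codon.
Tuba1c: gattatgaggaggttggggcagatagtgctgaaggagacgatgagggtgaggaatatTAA
Tuba4a: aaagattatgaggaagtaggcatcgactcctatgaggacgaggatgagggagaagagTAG
Tubb2a: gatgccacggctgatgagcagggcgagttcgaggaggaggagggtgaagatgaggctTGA
Tubb2b: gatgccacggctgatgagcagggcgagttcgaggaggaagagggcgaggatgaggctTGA
Tubb4b: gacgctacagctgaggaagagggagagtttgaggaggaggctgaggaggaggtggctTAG
Tubb5: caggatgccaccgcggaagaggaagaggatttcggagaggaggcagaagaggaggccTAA

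In this stretch Tuba1c and Tuba4a were identical at 60.3% of bases, against 85.3% over the whole coding sequence. Pairs of the 4 beta members were identical at 65.1 to 95.0%. Tubb2a and Tubb2b remained close to each other there, while Tubb5 was identical to the other 3 at 65.1 to 69.8% of bases. Likeness matters for the counts, because reads with several alignments (12.09 to 14.51% of a table's reads) were set apart before counting. Of the 75-base windows along the main transcript, 78.3% in Tuba1b, 70.4% in Tuba1a and 56.7% in Tuba1c were also found in transcripts of other genes, among them each other and a set of pseudogenes. The share was 47.2% in Tuba4a, all of it outside the coding sequence and in annotated transcripts of Stk16, and 43.2% in Tubb2a, 40.9% in Tubb4b and 32.2% in Tubb2b. It was 7.64% in Tubg1, shared with Tubg2, and 0.0% in Tubb5 and Tubb6. A shared window can come from like sequence or from genes that overlap, which were not told apart here. Counts of the 3 Tuba1 genes, of Tuba4a, of Tubb2a and Tubb2b, and of Tubb4b are therefore uncertain in level, as a read from a shared stretch may be missing from the gene or be placed elsewhere.

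Gene counts ranged from 30100177 to 74947533 per library, and 10 of the 15 libraries held under 1000 spike-in counts. The targeted genes followed the labels. Padi6 was at 1750, 1590 and 1670 scaled CPM in Padi6 het and at 24.8, 23.5 and 18.7 in Padi6 KO (scaled CPM are counts-per-million of all gene counts, with TMM scaling over all 12 replicates). Tle6 was at 457 and 429 scaled CPM in Tle6 het and at 91.4, 76.4, 61.1 and 97 in Tle6 KO. The 12 oocyte markers, such as Zp3 and Gdf9, summed to between 19100 and 25900 scaled CPM in every replicate, and the 18 granulosa and cumulus cell markers to between 101 and 134. Theca and stroma markers summed to at most 6.23, blood and immune markers to at most 2.75 and endothelial markers to at most 44.6 scaled CPM. Most of the endothelial sum came from Pecam1, with group means of 24.5 to 27.8 scaled CPM, while those of Cdh5 were at most 0.0169. Whole oocytes were pooled and scaled CPM are relative to all gene counts of a library. A lower value may thus mean, among other readings, less RNA per oocyte, fewer oocytes with it or more of other transcripts. These cannot be told apart, and how fully poly(A) RNA was captured was not tested.

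The 2 technical libraries of Tle6 het replicate 2 differed from each other for some members. Tubg1 was at 19.5 scaled CPM in library A and 2.93 in library B, a ratio of 6.66. Tubb2b was at 45.0 and 152, a ratio of 0.296, and Tuba1b at 11.3 and 5.43, a ratio of 2.08. These 3 of the 10 members differed by more than 1.5 times between the libraries of that replicate. In het replicate 1 the ratios lay between 0.88 and 1.21, and in KO replicate 4 between 0.876 and 1.27, so that no member passed 1.5 times there. What sets the libraries of het replicate 2 apart was not tested, and the values of Tubg1 and Tubb2b are given below with and without them.

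**Figure D1:**
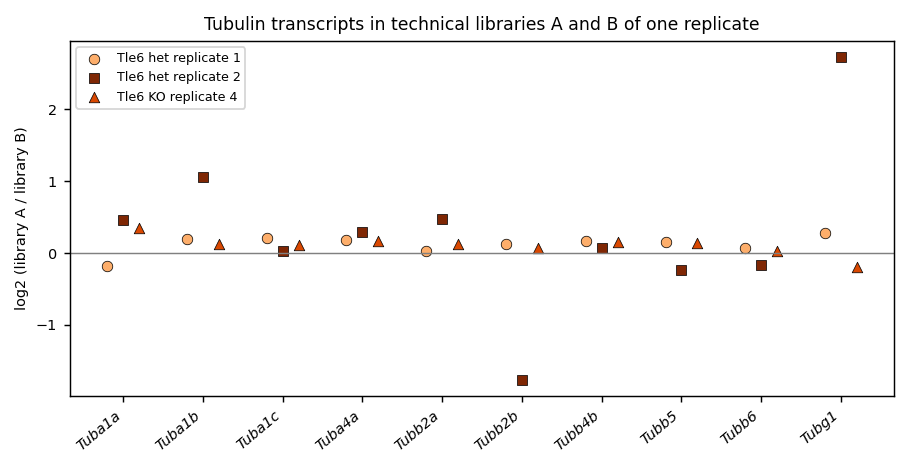
Log2 ratio of scaled CPM in technical library A to library B (vertical axis) for each tubulin gene (horizontal axis), in the 3 replicates with both libraries. Tubg1, Tubb2b and Tuba1b of Tle6 het replicate 2 lie furthest from 0, and the points of the other replicates lie near it.

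Levels of different genes were compared per kilobase of exon, as scaled CPM per kb. Tubb4b was the most abundant member in each of the 4 groups. It reached 483 ± 48.5 CPM per kb in Padi6 het (SD, n = 3), 507 ± 18.2 in Padi6 KO (n = 3), 441 ± 87.1 in Tle6 het (n = 2) and 420 ± 97.2 in Tle6 KO (n = 4). By exon length Tubb6 came next, with group means between 174 and 213 CPM per kb. Its replicates lay below all those of Tubb4b and above all those of the third member in each group. The place of Tuba4a depended on the length used. It has 3.701 kb of exon but 1461 windows not shared with other genes, beside 2.437 kb and 1684 windows for Tubb6. With unshared windows as length, Tuba4a lay above Tubb6 in the Padi6 line.

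In the Padi6 line the third was Tuba4a, at 130 CPM per kb in het and 133 in KO, followed by Tubb5 at 80.6 and 109, with no overlap between the replicates of neighbouring genes. In the Tle6 line Tubb5 and Tuba4a were neighbours whose replicates overlapped in het, with means of 95.6 and 86.7 CPM per kb. In Tle6 KO Tubb5 was at 108, overlapping Tubg2, and Tuba4a at 84.9 CPM per kb. This order too depended on the length. With unshared windows as length, 1461 for Tuba4a and 2575 for Tubb5, Tuba4a lay above Tubb5 in every group. By exon length Tubb2a and Tubb2b came below them, with group means of 41.5 to 46.9 and 27.4 to 50.7 CPM per kb. Tubb2a lay above Tubb2b in Padi6 het and KO, without overlap. The order was reversed in Tle6 het, with Tubb2b at 50.7 and Tubb2a at 41.7 CPM per kb, also without overlap. In Tle6 KO their replicates overlapped. Tuba1c stood at 20.3 to 22.3 CPM per kb, Tubg1 at 3.37 to 10.6 and Tuba1b at 6.16 to 7.8. Tuba1a was the lowest member in every group, at 0.239 to 0.387 CPM per kb and with 17 to 63 reads per replicate.

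The shares of a class put the same values in proportion, each as a percentage of the summed CPM per kb of all alpha (8), beta (8) or gamma (2) tubulin genes. Tuba4a made up 50.2% ± 3.65 of alpha tubulin transcripts in Padi6 het and 50.5% ± 3.82 in Padi6 KO (SD, n = 3 each), and 39.6% ± 7.41 (n = 2) and 39.9% ± 5.63 (n = 4) in Tle6 het and KO. Tuba1c held 7.81 to 9.59% and Tuba1b 2.69 to 3.07% in the group means. Counting only the windows not shared with other genes as length, a choice made after seeing the data, Tuba1b made up 6.71 to 7.7% of the class and Tuba4a 49.6 to 60.3%. Among beta tubulins, Tubb4b held 48.3 to 56.3%, Tubb6 20.6 to 25.1% and Tubb5 9.41 to 12.7% in the group means. Tubb2a held 4.93 to 5.03% and Tubb2b 3.23 to 6.0%. The order within the beta class was the same with unshared windows as length for Tubb4b, Tubb6 and Tubb5, with group means of 60.2 to 67.6%, 15.8 to 19.6% and 6.31 to 8.86%.

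**Figure D2:**
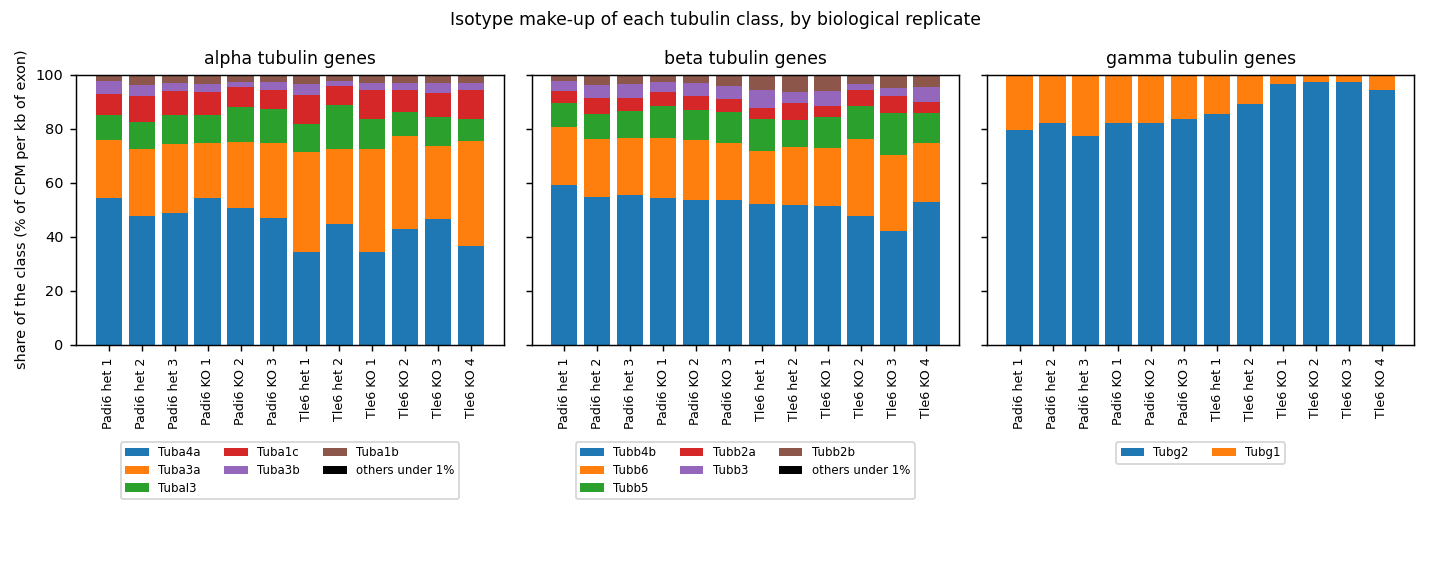
Share of each isotype in the summed CPM per kb of exon of its class (vertical axis, percent) in each of the 12 biological replicates (horizontal axis), for alpha, beta and gamma tubulin genes. Tuba4a and Tubb4b take the lowest blocks, and the Tubg1 block is thinnest in the 4 Tle6 KO replicates, at 2.9 to 5.59%.

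In the Padi6 line the comparison asks which of these transcripts differ in oocytes that lack PADI6. Tubb5, a beta isotype found in most tissues, was higher in Padi6 KO oocytes, and the other 9 members did not pass the test. Tubb5 was at 266, 243 and 295 scaled CPM in het replicates 1, 2 and 3, and at 377, 345 and 365 in KO replicates 1, 2 and 3. All 3 KO replicates lay above all 3 het replicates. The means were 268 ± 25.9 and 362 ± 16.2 (SD, n = 3 each), a log2 fold change of 0.43 ± 0.10 (SE), with an adjusted p of 0.0475 by edgeR's quasi-likelihood test with Benjamini-Hochberg adjustment over 18228 genes. Of all genes tested, 2.41% were called in this comparison, 1.69% higher and 0.724% lower. Tubb5 shares no 75-base window with another gene.

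This call lay close to the threshold of 0.05. It was lost when any 1 of the 6 replicates was left out, with log2 fold changes of 0.38 to 0.50 and edgeR adjusted p of 0.0896 to 0.141. With the spread estimated over both lines together the log2 fold change was 0.43 and the edgeR adjusted p 0.333. With total count scaling they were 0.41 and 0.0529. Tubb5 was higher in KO under all 15 alternatives and passed the threshold under 7 of them. Its share of beta tubulin transcripts was 9.41% ± 0.56 in het and 11.6% ± 0.211 in KO (SD, n = 3 each).

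**Figure D3:**
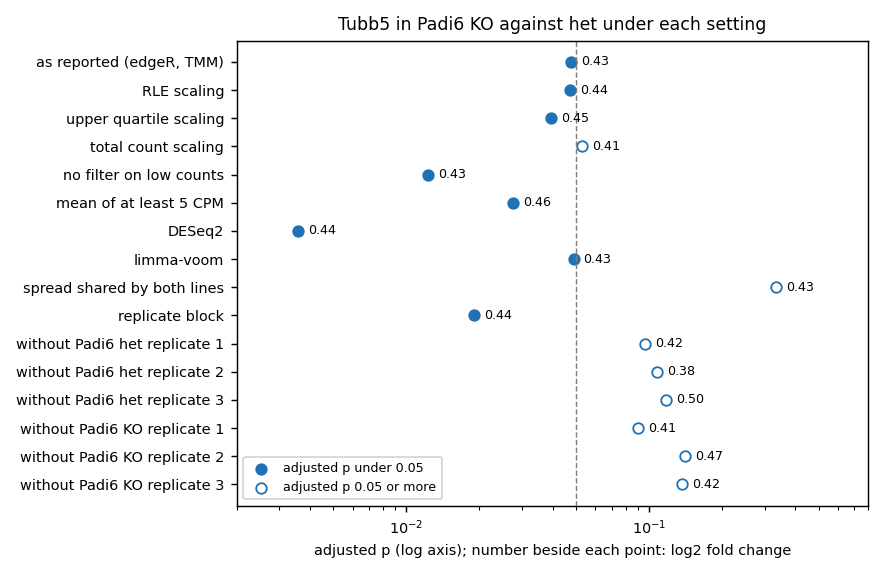
Adjusted p of Tubb5 in Padi6 KO against het (horizontal axis, logarithmic) under each processing setting (vertical axis), with the log2 fold change printed beside each point and the threshold of 0.05 dashed. Filled points are under 0.05, and the 6 open points from 0.0896 to 0.141 at the bottom leave out 1 replicate each.

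The other beta isotypes moved less. Tubb6 was at 464, 415 and 458 scaled CPM in Padi6 het and 523, 492 and 476 in KO, again without overlap, but with a log2 fold change of 0.16 ± 0.09 it did not pass (edgeR adjusted p = 0.385). Groups without overlap were found for these 2 of 10 members and for 23.2% of all genes tested. Tubb4b was at 1100, 901 and 1020 scaled CPM in het and 1100, 1020 and 1050 in KO, with log2 fold change 0.07 ± 0.10. Tubb2a and Tubb2b, whose coding sequences are much alike, had log2 fold changes of 0.13 ± 0.10 and 0.20 ± 0.19, with overlapping groups and edgeR adjusted p of 0.543 and 0.634.

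None of the alpha members passed in the Padi6 line. Tuba4a was at 550, 409 and 479 scaled CPM in het and 556, 467 and 459 in KO, so the groups overlapped almost fully (log2 fold change 0.04 ± 0.12). Tuba1b, one of the main alpha isotypes of dividing cells, had a log2 fold change of -0.10 ± 0.16, and Tuba1c of -0.11 ± 0.12. Tuba1a, best known from developing neurons, had 0.13 ± 0.38. Tubg1 was at 24.5, 18.5 and 29.1 scaled CPM in het and 26, 22.7 and 18 in KO, with overlapping groups and a log2 fold change of -0.11 ± 0.18. Over the 10 members, 7 log2 fold changes were above 0 and 3 below, with a median of 0.10, beside a median of -0.01 over all genes tested.

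Markers of other ovarian cells are given beside these values. Those of granulosa and cumulus cells summed to 113 ± 7.02 scaled CPM in Padi6 KO and 117 ± 9.88 in het (SD, n = 3 each, two-sided exact permutation p = 0.6, where 0.1 is the smallest possible). Most of the sum came from Nr5a2 and Cyp19a1, at 65.4 and 25.8 scaled CPM in KO and 63.9 and 26.2 in het. Gene by gene the list lay lower in KO, where 12 of 14 tested genes had a log2 fold change below 0, with a median of -0.96 beside -0.01 over all genes tested, and 6 had an unadjusted p under 0.05. Of 18 markers, 12 were under 1 scaled CPM in every KO replicate and 6 in every het replicate. The log2 fold changes of Amhr2, Inha, Fshr and Cyp11a1, named after their values were seen, were -2.77, -2.75, -2.13 and -1.81, and none of these passed (edgeR adjusted p of 0.08 to 0.109). Cyp11a1, a steroidogenic enzyme, was the most abundant of them, at 11.5 ± 9.6 scaled CPM in het and 3.26 ± 0.546 in KO. The only gene of the list to pass was Has2, a hyaluronan synthase of cumulus cells, which was higher in KO, at 10.9 ± 0.405 against 2.41 ± 1.16. Theca and stroma markers summed to 3.87 ± 1.6 in KO and 4.32 ± 1.01 in het (exact permutation p = 0.7). The oocyte markers summed to 25600 ± 294 in KO and 23900 ± 395 in het (exact permutation p = 0.1, the smallest possible). The part of these markers in the Tubb5 value was not tested.

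**Figure D4:**
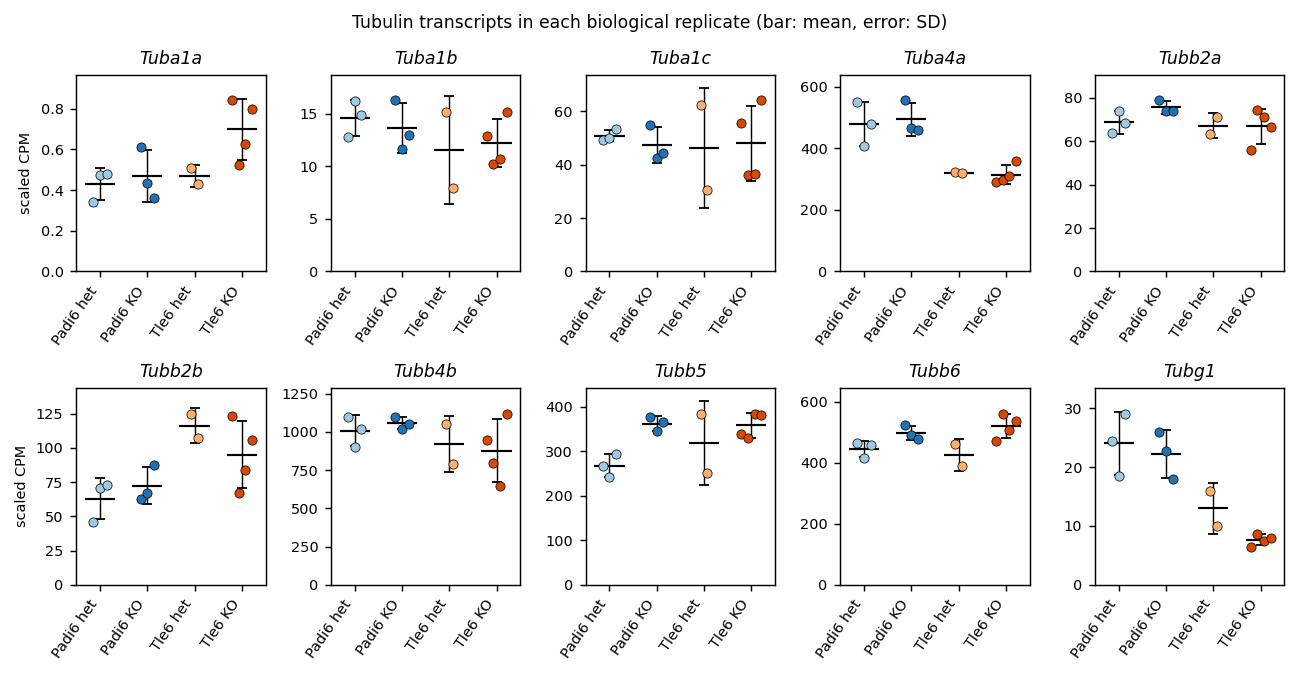
Scaled CPM (vertical axis) of each tubulin gene in each biological replicate (points), by genotype group (horizontal axis), with the group mean as a bar and the SD as an error bar. Tubb5 is separated between Padi6 het and KO, and Tubg1 is lowest in Tle6 KO, at 6.4 to 8.63.

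In the Tle6 line the comparison asks the same of oocytes that lack the maternal complex subunit. No member passed the test (0 of 10, with 1 at an unadjusted p under 0.05), while 1.62% of the 20276 genes tested were called, 0.587% higher and 1.04% lower. Tubg1 was nearest to the threshold. It was at 16 and 9.94 scaled CPM in het replicates 1 and 2 and at 6.4, 8.63, 7.51 and 7.96 in KO replicates 1 to 4. All 4 KO replicates lay below both het replicates. The means were 13 ± 4.29 (n = 2) and 7.63 ± 0.938 (n = 4), with a log2 fold change of -0.72 ± 0.26, an unadjusted p of 0.0233 and an adjusted p of 0.191 by edgeR.

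The value of Tubg1 turned on the libraries of het replicate 2. Without its library B, in which Tubg1 was at 2.93 scaled CPM, the log2 fold change was -1.21 (edgeR adjusted p = 0.0698). Without its library A, at 19.5, the log2 fold change was -0.28 (edgeR adjusted p = 0.779). In both libraries of het replicate 1, at 16.6 and 13.7 scaled CPM, Tubg1 lay above the 4 KO replicates. Without het replicate 1 the log2 fold change was -0.36 and without het replicate 2 it was -1.06 (edgeR adjusted p = 0.566 and 0.171). With that replicate gone, the spread of the single het sample left is taken to be like that of the KO samples.

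Tubg2, the other gamma tubulin gene, was singled out after its values were seen. It was at 71.4 and 62.2 scaled CPM in Tle6 het and at 135, 222, 195 and 104 in Tle6 KO, all above both het replicates. Its log2 fold change was 1.34 ± 0.31, with an unadjusted p of 0.00205 and an adjusted p of 0.0709 by edgeR, so it did not pass. Over 20 alternatives its log2 fold change ran from 1.17 to 1.51 and it passed in 4 of them. In the libraries of het replicate 2 it was at 56.4 and 65.8 scaled CPM, so the gap between these libraries in Tubg1 was not seen in Tubg2. As a share of gamma tubulin transcripts, Tubg1 was at 12.9% ± 2.67 in Tle6 het (SD, n = 2) and at 3.53, 2.92, 2.9 and 5.59% in the 4 Tle6 KO replicates. Within het replicate 2 the share was 21.1% in library A and 3.33% in library B, the latter inside the KO range, while in het replicate 1 it was 15.2 and 14.2%. In the Padi6 line the share was 20.4% ± 2.42 in het and 17.5% ± 0.762 in KO (n = 3 each). These shares are a description, and their difference was not tested.

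The beta members did not pass in the Tle6 line. Tubb6 was at 462 and 389 scaled CPM in het and 470, 561, 508 and 538 in KO, without overlap, and its log2 fold change was 0.33 ± 0.18 (edgeR adjusted p = 0.345). Tubb5 was at 385 and 251 in het and 339, 331, 384 and 382 in KO, so all 4 KO values lay between those of the het replicates. Its log2 fold change was 0.22 ± 0.21 (edgeR adjusted p = 0.613). Tubb4b was at 1050 and 792 scaled CPM in het and at 950, 798, 643 and 1120 in KO, with log2 fold change -0.03 ± 0.25. Tubb2a had 0.04 ± 0.19. Tubb2b had -0.24 ± 0.25, with 125 and 107 scaled CPM in het and 123, 67.2, 84.1 and 106 in KO. Without library B of het replicate 2 it was at 0.17 and without library A at -0.53 (edgeR adjusted p = 0.903 and 0.272), so its sign turned on these libraries.

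Among the alpha members, Tuba1a was at 0.507 and 0.43 scaled CPM in het and 0.841, 0.521, 0.628 and 0.8 in KO, higher in all 4 but from few reads (log2 fold change 0.62 ± 0.44, edgeR adjusted p = 0.484). Groups without overlap were thus found for 3 of 10 members, Tuba1a, Tubb6 and Tubg1, and for 29.2% of all genes tested. Tuba4a was at 323 and 319 in het and 292, 296, 309 and 360 in KO, with a log2 fold change of 0.01 ± 0.17. Tuba1c was at 62.3 and 30.5 in het and at 55.7, 36, 36.6 and 64.2 in KO, and Tuba1b at 15.2 and 7.95 and at 12.9, 10.2, 10.7 and 15.2. In both genes het replicate 1 and KO replicates 1 and 4 were high, and het replicate 2 and KO replicates 2 and 3 low, a split that runs across the genotypes. Tubb4b followed the same order. The log2 fold changes of Tuba1b and Tuba1c were 0.13 ± 0.31 and 0.10 ± 0.34. Over the 10 members 7 log2 fold changes were above 0 and 3 below, with a median of 0.07 beside 0.06 over all genes tested.

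Granulosa and cumulus markers summed to 116 ± 7.46 scaled CPM in Tle6 KO (n = 4) and 117 ± 23.1 in het (n = 2), with a two-sided exact permutation p of 0.8, where 0.133 is the smallest possible. Nr5a2 and Cyp19a1 made up most of each sum, at 49.7 and 47.2 scaled CPM in KO and 46.5 and 54.1 in het. Of the 15 tested genes of that list 11 had a log2 fold change above 0, with a median of 0.55 beside 0.06 over all genes tested, and 3 had an unadjusted p under 0.05. Theca and stroma markers summed to 3.18 ± 0.613 in KO and 5.85 ± 0.536 in het, without overlap (exact permutation p = 0.133, the smallest possible). Their median log2 fold change was -1.45 over 6 tested genes, of which 4 were below 0 and 5 had an unadjusted p under 0.05. The nearest of them to the threshold was Pdgfra, a receptor of stromal cells, at 0.705 ± 0.211 scaled CPM in KO and 2.71 ± 0.745 in het (log2 fold change -1.89, edgeR adjusted p = 0.0525). Ptch1 and Acta2 of this list went the other way, with log2 fold changes of 1.98 and 0.83. Ptch1 was at 1.39 ± 0.749 scaled CPM in KO and 0.355 ± 0.251 in het, without overlap. No gene of either list passed. The oocyte markers summed to 19700 ± 615 and 20700 ± 692 (exact permutation p = 0.267). The part of these markers in the tubulin values was not tested.

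**Figure D5:**
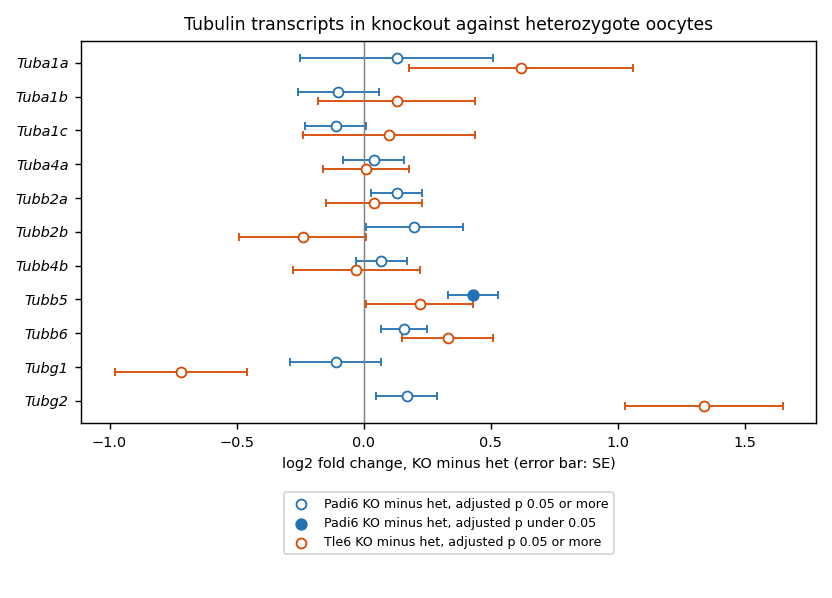
Log2 fold change of KO against het (horizontal axis, error bars SE) for each tubulin member and for Tubg2 (vertical axis), in the Padi6 and the Tle6 line. Tubb5 at 0.43 in the Padi6 line is the filled point with an adjusted p under 0.05, and Tubg1 at -0.72 and Tubg2 at 1.34 lie furthest from 0 in the Tle6 line.

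Whether a member responded differently in the lines was tested as the difference of the effects, Tle6 minus Padi6, in a fit over all 12 replicates. No member passed (0 of 10, none at an unadjusted p under 0.05), while 4.32% of 21392 genes were called, 1.31% higher and 3.01% lower. For Tubb5 the difference was -0.26 ± 0.23 on the log2 scale (edgeR adjusted p = 0.562), so its call in the Padi6 line alone does not show that the lines differ. For Tubg1 the difference was -0.65 ± 0.33 (edgeR adjusted p = 0.284), and with library B only, where a replicate has both, it was 0.01. The difference was 0.44 ± 0.54 for Tuba1a and -0.49 ± 0.34 for Tubb2b, and the other 6 lay between -0.14 and 0.18. For Tubg2 it was 1.12 ± 0.34 (edgeR adjusted p = 0.0812).

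The het groups of the lines were compared to order the 4 groups for each gene. Line, strain background and preparation cannot be told apart in this comparison, in which 28.5% of 21392 genes were called, 15.9% higher and 12.7% lower. Tubb2b was higher in Tle6 het, at 125 and 107 scaled CPM against 45.7, 70.3 and 72.6 in Padi6 het (log2 fold change 0.89 ± 0.26, edgeR adjusted p = 0.0194). Tuba4a was lower, at 323 and 319 against 550, 409 and 479 (-0.58 ± 0.16, edgeR adjusted p = 0.0169). Tubg1 was lower, at 16 and 9.94 against 24.5, 18.5 and 29.1 (-0.89 ± 0.26, edgeR adjusted p = 0.021). These 3 of 10 members had no overlap between the groups, as had 53.9% of all genes tested.

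Each of the 3 calls was lost without library B of Tle6 het replicate 2. The log2 differences were then 0.44 for Tubb2b (edgeR adjusted p = 0.449), -0.50 for Tuba4a (0.059) and -0.44 for Tubg1 (0.218). Without library A of that replicate they were 1.18, -0.62 and -1.33 (edgeR adjusted p = 0.0048, 0.0149 and 0.0481). Tubg1 in library A, at 19.5 scaled CPM, lay inside the Padi6 het range of 18.5 to 29.1, and in library B, at 2.93, far below it. With library B only, where a replicate has both, Tubg1 was at -1.52, and with total count scaling Tuba4a was at -0.89 and Tubb2b at 0.58, the last no longer called (edgeR adjusted p = 0.0199, 0.00138 and 0.0831). The other 7 members did not pass, with log2 differences between -0.34 and 0.25. Tubb5 lay lowest in Padi6 het at 268 scaled CPM, and its means in the other 3 groups were 318 to 362.

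Genes that fold, modify and assemble tubulin were taken from 6 lists. Of the 94 tested in the Padi6 line 1 was called (1.06%, beside 2.41% of all genes), and of the 92 tested in the Tle6 line 2 were (2.17%, beside 1.62% of all genes), so neither share stood far from that of all genes. None of 14 tubulin folding cofactors and prefoldin subunits or 8 subunits of the CCT chaperonin, which folds new tubulin, passed in either line. Nor did any of 11 genes of the mRNA feedback, TTC5, SCAPER and the CCR4-NOT deadenylase. The median log2 fold changes of these lists, in this order, were 0.01, -0.04 and 0.01 in the Padi6 line. In the Tle6 line they were 0.27, -0.09 and -0.23. Of the 12 genes of the gamma tubulin ring complex and its anchors, 1 fell in Padi6 KO, Akap9, a scaffold that binds the complex at the Golgi and centrosome. Akap9 was at 51.5 ± 3.45 scaled CPM in het and 35.4 ± 4.45 in KO (n = 3 each), with a log2 fold change of -0.54 ± 0.12 (edgeR adjusted p = 0.0446). It passed in 6 of 15 alternatives, with an adjusted p up to 0.326. In the Tle6 line none of these 12 passed.

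Of 25 tested genes of tubulin modification none passed in the Padi6 line. Of 23 tested in the Tle6 line 1 rose, Ttll13, which adds glutamate chains to tubulin. It was at 27.6 ± 2.64 scaled CPM in het (n = 2) and 51.7 ± 2.61 in KO (n = 4), with a log2 fold change of 0.95 ± 0.18 (edgeR adjusted p = 0.0425). Of 25 tested regulators of the microtubule polymer none passed in the Padi6 line and 1 fell in the Tle6 line, Clasp2, which binds growing microtubule ends. Clasp2 was at 62.6 ± 2.66 in het and 30.8 ± 4.88 in KO, with a log2 fold change of -0.98 ± 0.20 (edgeR adjusted p = 0.0498). With any 1 replicate left out, Ttll13 had edgeR adjusted p of 0.0746 to 0.143 and passed in no case, and Clasp2 had 0.0443 to 0.166 and passed in 1. The median log2 fold change of the polymer regulators was -0.14 in the Padi6 and -0.29 in the Tle6 line, beside -0.01 and 0.06 over all genes tested. That of the modification genes was -0.14 and -0.04, and that of the ring complex and its anchors -0.12 and -0.1.

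Of the 10 other tubulin genes, Tuba8, Tubb1 and Tubb4a did not pass the filter on low counts in the Padi6 line and Tuba8 and Tubb1 did not in the Tle6 line. None of the 7 and 8 tested passed in either line. Tuba3a, an alpha isotype known from testis, was the second alpha gene after Tuba4a, at 24.0 to 34.8% of the class, or 14.7 to 22.5% with unshared windows as length. It was at 88.5, 86.6 and 103 scaled CPM in Padi6 het, 85.6, 93.1 and 113 in Padi6 KO, 142 and 80.8 in Tle6 het and 134, 97.8, 74.1 and 156 in Tle6 KO. Its replicates in the Tle6 line fell into the same high and low order as those of Tuba1b and Tuba1c.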

How the data were processed

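The authors deposited counts of reads per gene for each of the 15 libraries, not normalised. Per the submitters' processing notes, bcl2fastq 2.20.0.422, cutadapt 2.8, STAR 2.7.8a and HTSeq 2.0.2 were used with mm39; the sources used here do not name the annotation or the strand setting. The 92 spike-in transcripts and the summary lines entered neither library sizes nor tests. Gene names, exon lengths and sequences came from GENCODE M21 (GRCm38), which named 52147 identifiers; no coordinates are given because the builds differ. Groups follow the genotype labels; the bracketed part of het titles reads WT.

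After filterByExpr, edgeR 4.0.16 in R 4.3.3 was used (TMM scaling, robust glmQLFit, glmQLFTest, two-sided, Benjamini-Hochberg adjustment over all genes tested, threshold 0.05), each line by itself and the 2 contrasts across lines in a fit over all 12 replicates. All 10 members passed the filter. Alternatives were other scalings and filters, DESeq2 1.42.0, limma-voom (limma 3.58.1), a shared spread, a replicate block, technical libraries used in other ways and each replicate left out. Shared 75-base windows were sought among annotated transcripts only; the sources used here do not give the read length. The genes named are the members, Padi6, Tle6, up to 3 called genes per list and some genes picked after seeing their values. The members and lists were chosen with earlier results of these data known.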

Additional observations from a re-analysis of the deposited data

Results flagged for a closer look

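Of the 141 tested genes of the pathway and marker lists, 4 (2.84%) differed in response between the 2 lines, beside 4.32% of all 21392 genes, by edgeR's test of the difference between the effects (Tle6 minus Padi6, log2 scale, Benjamini-Hochberg adjustment). Ttll13, a tubulin glutamylase, had a difference of 0.76 ± 0.19 (adjusted p = 0.0389), higher in 4 of 4 Tle6 KO replicates than in both het replicates. It was called in 10 of 24 alternatives, among them 1 of the 12 that leave out a replicate, with adjusted p up to 0.112. Clasp2, which binds growing microtubule ends, had a difference of -1.03 ± 0.22 (adjusted p = 0.0219), with log2 fold changes of -0.98 in the Tle6 and 0 in the Padi6 line. It was called in 17 of 24 alternatives and in 7 of the 12 without a replicate, with adjusted p up to 0.0888. Has2, a hyaluronan synthase of cumulus cells, had a difference of -2.86 ± 0.58 (adjusted p = 0.0159), with 10.9 ± 0.405 and 2.41 ± 1.16 scaled CPM in Padi6 KO and het. It was called in 20 of 23 alternatives, and was at -1.71 with library A only (adjusted p = 0.154), -1.83 when library B of Tle6 het replicate 2 was omitted (0.112) and -2.06 without that replicate (0.0849). Inha, the inhibin alpha subunit of granulosa cells, had a difference of 4.63 ± 1.05 (adjusted p = 0.0274), from low levels of 0.209 and 1.41 scaled CPM in Padi6 KO and het and 0.772 and 0.211 in Tle6 KO and het. It was called in 15 of 23 alternatives and in 7 of the 12 without a replicate, with adjusted p up to 0.112.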

How the results depend on the processing

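The count of members called in Padi6 KO against het (1 higher, Tubb5) was 0 with total count scaling, with a spread shared by both lines and, as a range, 0 to 0 when each replicate was left out. Tle6 het against Padi6 het (1 higher, 2 lower) gave 0 higher with total count scaling, 0 higher and 0 lower with library A only or with library B of Tle6 het replicate 2 left out, and 0 higher and 1 lower with technical libraries as separate replicates. With each replicate left out this comparison gave 0 to 1 higher and 0 to 2 lower. Without Padi6 het replicate 1, or without Tle6 het replicate 1, Tubb2b was lost, at 0.70 and 0.78. Tuba4a was lost without Padi6 het replicate 1 or either Tle6 het replicate, at -0.47, -0.58 and -0.57, and Tubg1 without Padi6 het replicate 3 or Tle6 het replicate 2, at -0.73 and -0.59. Without Tle6 het replicate 1, Tuba1b was lower there (-0.87, edgeR adjusted p = 0.0499). No member was called in the Tle6 line or in the difference of effects under any alternative run. Other values that changed sign belonged to members with no call.

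In the Tle6 line, Tuba4a was at -0.02 (log2, KO minus het) with RLE scaling and with DESeq2, -0.03 with a shared spread, -0.11 with library A only and -0.10 when library B of het replicate 2 was omitted. Tubb2a was at -0.01 with a shared spread, and Tubb2a, Tuba1b and Tubb2b were at -0.13, -0.13 and 0.15 with library A only and at -0.14, -0.11 and 0.17 without that library B. Tubb4b was at 0.12 with total count scaling, 0.04 with a mean of at least 5 CPM and 0.04 with separate technical libraries. With each replicate left out, Tuba1b ran from -0.30 to 0.65, Tuba1c from -0.37 to 0.68, Tuba4a from -0.06 to 0.05, Tubb2a from -0.06 to 0.10, Tubb4b from -0.25 to 0.17 and Tubb5 from -0.10 to 0.54. In the Padi6 line the ranges were -0.10 to 0.28 for Tuba1a, -0.04 to 0.15 for Tuba4a and -0.25 to 0.04 for Tubg1.

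In the difference of effects, total count scaling gave 0.15 for Tuba4a, 0.09 for Tubb2a and 0.07 for Tubb4b, and the 5 CPM filter 0.01 for Tuba4a. Tuba1b was at -0.03 with library A only and -0.01 when that library B was omitted, and with library B only Tuba4a was at 0.02 and Tubg1 at 0.01. With replicates left out, Tuba1b ran from -0.21 to 0.71, Tuba1c from -0.27 to 0.75, Tuba4a from -0.18 to 0.03, Tubb4b from -0.33 to 0.06 and Tubb5 from -0.54 to 0.07. Between the het groups, total count scaling gave -0.19 for Tuba1a and -0.05 for Tubb5, and Tubb2a was at 0.10 with library A only and without that library B. The ranges there were -0.02 to 0.23 for Tuba1a, -0.87 to 0.05 for Tuba1b, -0.73 to 0.29 for Tuba1c, -0.12 to 0.06 for Tubb2a, -0.34 to 0.06 for Tubb4b, -0.09 to 0.52 for Tubb5 and -0.19 to 0.05 for Tubb6. Total count scaling moved the median of all genes by -0.31 between the het groups, by 0.16 in the Tle6 line and by 0.22 in the difference of effects.

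To look for pairing, the deviations of each replicate from its group mean were correlated over genes between same-numbered het and KO replicates. The correlations were 0.11, 0.06 and 0.07 in the Padi6 line and 0.05 and 0.10 in the Tle6 line. With 2 het replicates in the Tle6 line, the deviations of one mirror those of the other. The numbers were not taken to pair the samples. A replicate block left Tubb5 at 0.44 in the Padi6 line (edgeR adjusted p = 0.019) and changed no call among the members; Tuba4a and Tubb2a in the Tle6 line were at -0.09 and -0.03. It moved the number of all genes called from 440 to 859 in the Padi6 line and from 329 to 57 in the Tle6 line. Over all alternatives that number ran from 60 to 1625 and from 57 to 2061 in the lines, from 369 to 2078 in the difference of effects (924) and from 3534 to 7288 between the het groups (6107). Scaling by spike-ins was not run, because 10 of 15 libraries held under 1000 spike-in counts. Depth limits Tuba1a, with 17 to 63 reads per replicate.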
